A study of Homo sapiens with 3 samples.

Results

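Guides against 8 growth control genes were followed through a pooled knockout screen: NF1, NF2, LATS1, LATS2, SAV1, YAP1, WWTR1 and TEAD1. Members were taken by gene name, and the rule uses no measured value, but the genes were chosen with earlier results of these data known. The library held 3 guides for each, so 24 of 62916 guides and 8 of 20472 gene names, microRNA genes included, are described, and all 24 guides passed the minimum of 10 normalized reads at day 0. The cells were NUGC3, an established human gastric cancer line, transduced with a GeCKO pool, so that Cas9 cut a single gene per cell, chosen by the guide RNA the cell had taken up. The share of a guide among the reads from genomic DNA follows the share of cells that carry it. The groups were DMSO at day 0, DMSO at day 14 and 10 nM RTX at day 14; all carried the library, DMSO is the solvent, and the labels do not spell out RTX, which the series title places among antifolates. Group names follow the sample titles, although the treatment note assigns 14 days of DMSO to the day 0 group. Each group was 1 library, so no difference has a replicate check and no p-value is given for the conditions. Genomic DNA holds no expression markers, so the line was not checked against its cell type.

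NF1 and NF2 cause separate tumour syndromes and brake growth by different routes. NF1 encodes neurofibromin, a GTPase-activating protein that returns RAS to its inactive state. NF2 encodes merlin, a membrane-linked protein that promotes the Hippo kinase cascade, in which the MST kinases, helped by the scaffold SAV1, activate LATS1 and LATS2. The LATS kinases phosphorylate the coactivators YAP1 and WWTR1 (also called TAZ), which keeps them out of the nucleus. In the nucleus these coactivators bind TEAD factors such as TEAD1 and switch on growth genes. Loss of a Hippo brake raises the output of YAP1 and TEAD, and loss of an effector lowers it.

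The libraries held 16547572 to 18805737 reads, with medians of 230 to 251 reads per guide. Values below are log2 ratios of the authors' normalized reads with 5 added to each, and a gene's value is the median of its 3 guides. The 991 non-targeting guides that passed the minimum show drift without a cut gene, and their SD was 0.64 (RTX over DMSO), 0.53 (DMSO over day 0) and 0.56 (RTX over day 0). Their central 95% ran from -1.31 to 1.17, from -0.97 to 1.11 and from -1.01 to 1.05 in the same order. Any 2 of the 3 comparisons share a library, so their values are not independent of each other. A gene or guide is counted as past the fold at 1 or more, or at -1 or less, which is a change of 2-fold. Intervals for single guides are exact 95% binomial intervals of the recovered reads without the added 5. These intervals, and the Poisson intervals of summed reads given for some genes, cover counting error only. PCR reads are not independent molecules, and neither kind of interval holds the drift seen in non-targeting guides.

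Across the 8 genes, SAV1 was past the fold in RTX over DMSO and LATS2 in RTX over day 0, both on the higher side, and no member was past it in DMSO over day 0. By the same rule 2.75% of 20150 genes were higher and 0.844% lower in RTX over DMSO. In RTX over day 0 the shares were 0.62% and 1.39%, and in DMSO over day 0 they were 0.109% and 3.42%. A single member past the fold is a small count, and neither gene had all 3 guides past it in its comparison. Guides against the brakes were mostly more abundant in RTX than at day 0, while those against the effectors were mostly less abundant.

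NF1, the RAS brake, had guides that stood somewhat higher under RTX. Its 3 guides were counted at 351, 255 and 393 reads in the day 0 library, at 264, 244 and 595 with DMSO and at 407, 379 and 548 with RTX. The first and second guides were lower in DMSO than in the other libraries by share of the library's reads, and the third was equal in DMSO and RTX. Relative to DMSO, the RTX values of the guides stood at 0.75, 0.76 and 0.02, a median of 0.75, which lay above 94.3% of genes. Without the first or the second guide this NF1 median was 0.39, and the mean of guides was 0.51. NF1 was the only member with all 3 guides higher in this comparison, as were 14.1% of the 18094 genes with 3 guides. The guides disagreed in DMSO over day 0, at -0.56, -0.22 and 0.43, with a median of -0.22. All 3 were higher in RTX over day 0, at 0.20, 0.56 and 0.47, with a median of 0.47. No NF1 guide lay outside the central 95% of non-targeting guides in any comparison. The reads of its guides summed to 60.4 RPM (reads scaled to the library's total) at day 0 (exact 95% Poisson interval 56.7 to 64.2), 58.7 in DMSO (55.2 to 62.2) and 76.9 in RTX (72.8 to 81.2). Of the 20 measured genes flanking NF1 (10 on each side), the median in RTX over DMSO was 0.31, the highest among the members' neighbourhoods. Their median was -0.22 in DMSO over day 0, and their part in the NF1 values was not tested.

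NF2, the merlin gene at the head of the Hippo cascade, had guides that disagreed in direction under RTX. The day 0 library held 644, 285 and 107 reads of its guides, the DMSO library 686, 238 and 88 and the RTX library 444, 323 and 152. The most abundant guide was lowest in RTX, whereas the other two were highest there, so the guides did not share an order. Relative to DMSO, their RTX values stood at -0.48, 0.57 and 0.89, with a median of 0.57 that lay above 89.7% of genes. Without the third guide the median of NF2 was 0.04. All 3 NF2 guides were lower in DMSO over day 0, at -0.07, -0.41 and -0.42, as were those of 14.7% of genes with 3 guides. They ran in RTX over day 0 from -0.54 to 0.48 around a median of 0.17. The summed reads were 62.6 RPM at day 0, 53.8 in DMSO and 53.0 in RTX.

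LATS1 and LATS2, the paralogous kinases that phosphorylate YAP1 and WWTR1, gave different patterns. LATS1 guides were counted at 47, 367 and 275 reads on day 0, 17, 453 and 478 after DMSO and 45, 383 and 345 after RTX. Only the sparse first guide, at 17 reads in DMSO, stood far from its other values. It gave -1.38 in DMSO over day 0 (counting interval -2.52 to -0.80) and 1.30 in RTX over DMSO (0.71 to 2.44), but -0.06 in RTX over day 0. The other two guides of LATS1 lay at -0.10 and -0.33 in RTX over DMSO. The medians of LATS1 were -0.10, 0.14 and 0.05 in RTX over DMSO, DMSO over day 0 and RTX over day 0. Each of these LATS1 medians is small enough to turn sign when ratios are scaled to the non-targeting guides.

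For LATS2, the day 0 library held 44, 120 and 181 reads of the guides, the DMSO library 79, 126 and 184 and the RTX library 107, 311 and 117. The first and second guides were most abundant in RTX and the third least abundant there. Their values in RTX over day 0 were 1.19 (counting interval 0.76 to 1.82), 1.33 (1.06 to 1.68) and -0.62 (-0.99 to -0.29). The intervals of the first and the third do not overlap, so these guides to 1 gene differed by more than counting error. The LATS2 median of 1.19 lay above 99.7% of genes, but it was 0.36 without the first guide and 0.29 without the second. It was 0.63 as a mean and 0.98 with 20 in place of 5 added. Relative to DMSO, the LATS2 guides in RTX stood at 0.55, 1.41 and -0.50, and in DMSO over day 0 at 0.63, -0.09 and -0.13.

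SAV1, the scaffold that joins the MST kinases to LATS, had the highest RTX over DMSO value among the members. Its guides gave 360, 265 and 62 reads on day 0, 568, 182 and 111 after DMSO and 474, 401 and 236 after RTX. The second and the third were most abundant in RTX, while the first was most abundant in DMSO. Their values in RTX over DMSO were -0.12 (counting interval -0.30 to 0.06), 1.26 (1.02 to 1.54) and 1.19 (0.90 to 1.57). The SAV1 median of 1.19 lay above 98.4% of genes, and it was 0.54 without the second guide. With the mean in place of the median, SAV1 stood at 0.78 in RTX over DMSO and was no longer past the fold. The guides stood at 0.49, -0.69 and 0.64 in DMSO over day 0, so the second guide started its RTX over DMSO ratio from a lower DMSO value. All 3 SAV1 guides were higher in RTX over day 0, at 0.38, 0.58 and 1.84, with a median of 0.58. The third guide, at 1.84, was the highest of all member guides there and above 99.4% of non-targeting guides. Summed SAV1 reads were 41.5 RPM at day 0 (Poisson interval 38.5 to 44.7), 45.8 in DMSO (42.8 to 48.9) and 64.1 in RTX (60.3 to 67.9).

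YAP1 and WWTR1, the coactivators held back by the LATS kinases, were lower under RTX in every guide, though not always beyond counting error. The day 0 library held 457, 758 and 227 reads of the YAP1 guides, the DMSO library 486, 912 and 287 and the RTX library 330, 572 and 217. All 3 were least abundant in RTX, and in DMSO they stayed near their day 0 share. Their values in RTX over DMSO were -0.41, -0.53 and -0.26, a spread of 0.27 that was the narrowest of the 8 genes. The median spread over genes with 3 guides was 0.96. At day 0 the YAP1 guides had more reads than 87.4%, 98.5% and 49.1% of all guides, and the part of depth in the spread was not tested. The YAP1 guides stood at -0.07, 0.11 and 0.18 in DMSO over day 0, and at -0.47, -0.41 and -0.07 in RTX over day 0. Counting intervals of the third YAP1 guide reached 0, at -0.52 to 0.00 in RTX over DMSO and -0.35 to 0.20 in RTX over day 0. Those of the first and second lay below 0 in both. Summed YAP1 reads were 87.1 RPM at day 0 (Poisson interval 82.7 to 91.8), 89.6 in DMSO (85.4 to 94.0) and 64.5 in RTX (60.8 to 68.4). The YAP1 median of -0.41 in RTX over DMSO lay above 14.0% of genes, and no YAP1 guide lay outside the central 95% of non-targeting guides.

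WWTR1 guides gave 225, 467 and 344 reads on day 0, 146, 724 and 345 after DMSO and 105, 377 and 245 after RTX. Again all 3 were least abundant in RTX, but in DMSO the first was below day 0 and the second above it. Relative to DMSO, their RTX values stood at -0.32, -0.79 and -0.35, with a median of -0.35. They stood at -0.76, 0.47 and -0.15 in DMSO over day 0. Their values in RTX over day 0 were -1.07, -0.31 and -0.49, with a median of -0.49 that lay above 9.45% of genes. The first guide, at -1.07, was below the central 95% of non-targeting guides. In RTX over DMSO its counting interval, -0.71 to 0.04, included 0. The other WWTR1 intervals in the comparisons with RTX lay below 0. By value, all 6 guides of the coactivators were thus lower in both comparisons with RTX. This held when scaled to equal library totals or to the non-targeting guides. Among genes with 3 guides, 13.5% had all of them lower in RTX over DMSO and 14.0% in RTX over day 0, and apart from the WWTR1 guide named the coactivator guides lay inside the central 95% of non-targeting guides.

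TEAD1, the DNA-binding partner of the coactivators, had the lowest medians of the 8 genes in both comparisons with day 0. With the mean of guides, WWTR1 at -0.62 was lower than TEAD1 at -0.59 in RTX over day 0. Reads of its guides numbered 138, 329 and 63 on day 0, 139, 197 and 27 after DMSO and 177, 142 and 31 after RTX. The second and the third were lower in both day 14 libraries than at day 0, and the first was not lower in RTX. The guides stood in DMSO over day 0 at -0.14, -0.88 and -1.23, with a median of -0.88 that lay above 4.48% of genes. Their values in RTX over day 0 were 0.34, -1.19 and -0.92, with a median of -0.92 that lay above 1.76% of genes. Without the second guide that median was -0.29. In DMSO over day 0 the median ran from -1.06 to -0.51 with a guide left out. Both TEAD1 medians stayed above -1, and scaled to the non-targeting guides they were -1.07 and -1.03. The TEAD1 guides in RTX over DMSO stood at 0.47, -0.32 and 0.29. Summed TEAD1 reads were 32.0 RPM at day 0 (Poisson interval 29.4 to 34.9), 19.3 in DMSO (17.4 to 21.4) and 20.2 in RTX (18.1 to 22.4).

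Set side by side were the 5 brakes (NF1, NF2, LATS1, LATS2 and SAV1) and the 3 effectors (YAP1, WWTR1 and TEAD1). By the sign of the gene median they lay on opposite sides in RTX over day 0, with LATS1 at only 0.05 and NF2 at 0.17. Of 15 brake guides, 12 were higher and 3 lower, with a median of 0.38, and of 9 effector guides, 1 was higher and 8 lower, with a median of -0.47. Of all guides to genes 49.8% were higher there, and of non-targeting guides 58.5%. Scaled to equal library totals or to the non-targeting guides, 11 of 15 brake guides and 1 of 9 effector guides were higher. The LATS1 median turned to -0.05 when scaled to the non-targeting guides and to -0.01 with equal totals. NF2 stayed higher, at 0.06 and 0.11, but its mean of guides was 0.04 and its median reached -0.18 with a guide left out. NF1, LATS2, SAV1 and the effectors kept the sign of their medians under both scalings and with any guide left out. In RTX over DMSO, 10 of 15 brake guides and 2 of 9 effector guides were higher, with medians of 0.57 and -0.32, where 50.1% of all guides to genes and 42.2% of non-targeting guides were higher. In DMSO over day 0 the groups were less apart, with 6 of 15 and 3 of 9 higher and medians of -0.09 and -0.14, where 49.7% of all guides to genes and 67.5% of non-targeting guides were higher. Guides to 1 gene share their target, so these are counts over 8 genes, and the difference between the groups was not tested. The 8 genes were also chosen with earlier results of these data known.

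In RTX over DMSO, 4 of 24 member guides (16.7%) were past the fold on the higher side, 1 each of LATS1 and LATS2 and 2 of SAV1. Among all 62610 guides the share was 7.89%, and among non-targeting guides 4.24%. No member guide was past the fold on the lower side, where 5.43% of all guides were. In RTX over day 0, 3 guides (2 of LATS2, 1 of SAV1) were past it on the higher side and 2 (1 each of WWTR1 and TEAD1) on the lower, against 3.18% and 5.32% of all guides. In DMSO over day 0, 2 guides (1 each of LATS1 and TEAD1) were past it on the lower side, against 7.52% of all guides, and none on the higher, against 2.32%. Sparse guides passed more often: 4 member guides had under 100 reads at day 0, and they made up 2 of the 4, 2 of the 5 and both of the 2 guides past the fold in these comparisons. Over all guides, 32.5% of those under 100 reads and 9.82% of the others were past the fold in RTX over DMSO.

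For RTX over DMSO, the authors' deposited table gave an FDR under 0.05 to 7 higher and 1 lower member guides, where 13.9% and 4.29% of all guides were. The higher guides were 2 of NF1, 2 of SAV1 and 1 each of NF2, LATS1 and LATS2, and the lower was 1 of WWTR1. The authors' deposited table also called 8.3% of the 1000 non-targeting guides higher and 5.3% lower. For RTX over day 0, the authors' deposited table so called 4 member guides higher and 2 lower, against 11.0% and 4.04% of all guides and 13.5% and 1.5% of non-targeting guides. For DMSO over day 0, the authors' deposited table called 2 higher and 1 lower, against 9.77% and 5.84% of all guides and 17.6% and 0.9% of non-targeting guides. A count test on the recovered reads, edgeR's exact test with the dispersion of the non-targeting guides, called 0 member guides in any comparison at an FDR under 0.05. Of all guides it called 0.877% higher and 0.393% lower in RTX over DMSO, 0.188% and 2.24% in DMSO over day 0, and 0.211% and 0.807% in RTX over day 0. It compares 2 libraries, not the conditions. By that test 2, 2 and 5 of the 24 member guides had an unadjusted p under 0.05 in RTX over DMSO, DMSO over day 0 and RTX over day 0, where 7.71%, 8.91% and 7.17% of all guides had one.

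The other genes of the Hippo and RAS pathways stood near the centre as lists. All 57 listed genes were measured, with medians of -0.12 in RTX over DMSO, 0.12 in DMSO over day 0 and -0.04 in RTX over day 0, where the median of all genes was 0. Past the fold were 1 lower in RTX over DMSO (STK4), 1 higher in DMSO over day 0 (STK3) and 0 in RTX over day 0.

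STK4 and STK3 encode the MST kinases that work with SAV1. The day 0 library held 80, 114 and 521 reads of the STK4 guides, the DMSO library 151, 183 and 615 and the RTX library 53, 55 and 490. All were highest in DMSO and lowest in RTX by reads, with a median of -1.30 in RTX over DMSO (guide range -1.52 to -0.19) that lay above 0.208% of genes. With the mean of guides STK4 fell just short of the fold. Its median had the opposite sign to that of its partner SAV1, 1.19. STK3, named after its values were seen, had guides of mixed sign in DMSO over day 0, from -0.11 to 1.23 around 1.12, and stood at -0.47 in RTX over DMSO.

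By role, the 16 upstream Hippo genes were centred on a median of -0.02 in RTX over DMSO, with 7 higher and 9 lower. The 8 partners of YAP1 and TEAD were centred on -0.09, with 2 higher and 6 lower. In RTX over day 0 the upstream Hippo genes had a median of -0.05, with 7 higher and 9 lower. The partners of YAP1 and TEAD stood there at 0.03, with 5 higher and 3 lower. Within this list TEAD3, a paralog of TEAD1 named after its values were seen, had medians of -0.70 in DMSO over day 0 and -0.97 in RTX over day 0. Its guides were of mixed sign in DMSO over day 0, from -2.17 (a guide with 16 reads in DMSO) to 0.26. All 3 TEAD3 guides were lower in RTX than at day 0, from -1.04 to -0.61. TEAD2 and TEAD4 stood at 0 and -0.13 in RTX over day 0. The 4 YAP1 target genes (CTGF, CYR61, ANKRD1 and AXL) were centred on -0.13 in RTX over DMSO, with none past the fold. Their median in RTX over day 0 was 0.11, with 4 higher and 0 lower.

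On the RAS side, the 15 other brakes were centred on a median of -0.12 in RTX over DMSO, with 4 higher, 11 lower and none past the fold, where NF1 stood at 0.75. RASA1, another GTPase-activating protein for RAS, stood at -0.06. The 14 RAS and MAPK drivers had a median of -0.18, also with none past the fold. In RTX over day 0 the 15 other brakes had a median of -0.07, with 5 higher and 10 lower, where NF1 stood at 0.47. The 14 drivers stood there at -0.17, with 5 higher and 9 lower. PTPN11, the phosphatase SHP2 upstream of RAS, had the lowest driver value in DMSO over day 0, a median of -0.99 with guides from -1.28 to -0.89. These names, too, were chosen after their values were seen.

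Neighbouring genes on the chromosome gave the members' regional background, since whole regions can shift in such screens. The median of the 20 flanking measured genes (10 on each side) was taken for each of the 8 members. It ran from -0.16 to 0.31 in RTX over DMSO and from -0.22 to 0.19 in DMSO over day 0. In RTX over day 0 it ran from -0.17 to 0.11. Around SAV1 it was -0.02 in RTX over DMSO, around LATS2 it was -0.17 in RTX over day 0, and around TEAD1 it was 0.19 in DMSO over day 0 and 0.08 in RTX over day 0.

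The genes closest to NF1 and NF2 in the pair of medians DMSO over day 0 and RTX over day 0 were found by Euclidean distance among 19522 other genes with at least 3 guides, over 3 libraries. RBM24, HCCS and SDHB were closest to NF1, at distances of 0.00376 to 0.00801. SYT11, FICD and GIMAP7 were closest to NF2, at 0.00498 to 0.0121. Within a distance of 0.1 there were 169 genes for NF1 and 239 for NF2.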

How the data were processed

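The 3 libraries, 1 per condition, were compared in pairs. Per the submitters' processing notes, the authors used MAGeCK 0.5.7 and build hg19. The matching step from reads to guides is not described in the labels. Every deposited table has, per the file headers, 2 abundance columns, a signal that is reads divided by 1 size factor per library. Whole reads were recovered from these steps (at least 99.9968% of values whole within 0.1). The deposited tables also give q-values (FDR) per guide.

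Log2 ratios used 5 as pseudocount, which understates changes of sparse guides, and a minimum of 10 normalized reads at day 0 (62610 of 62916 guides). Genes needed 2 guides (20150). Left out were 23 date-like names with 72 guides. The count test was edgeR 4.0.16 in R 4.3.3, tested on simulated data; other steps used Python 3.11.15. RefSeq (GRCh38.p14) matched all 8 members and gave gene order only, since builds differ. Named were all members and pathway genes past the fold with guides of 1 sign, and for NF1 and NF2 the 3 closest genes. STK3, TEAD2, TEAD3, TEAD4, RASA1 and PTPN11 were named after their values were seen. Members and lists were chosen with earlier results of these data known. Alternatives were other pseudocounts, filters, scalings, fold limits, means, and left-out guides. The values of 1 gene of the pathway lists are not reported here.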

Additional observations from a re-analysis of the deposited data

How the results depend on the processing

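With 1 library per condition no culture could be left out, and guides were left out instead. No paired analysis was possible because each group holds 1 library. Of 24 gene medians (8 genes in 3 comparisons), 15 kept their sign whichever guide was left out. Scaling to the non-targeting guides moved the median of all genes by 0.1 in RTX over DMSO, by -0.19 in DMSO over day 0 and by -0.11 in RTX over day 0, and turned LATS1 in all 3 comparisons and YAP1 in DMSO over day 0 (to -0.08). Scaling to equal totals turned LATS1 in RTX over day 0. The mean of guides turned LATS1 in RTX over DMSO (to 0.29) and in DMSO over day 0 (to -0.20), and LATS2 in DMSO over day 0 (to 0.14).

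Member genes past the fold in RTX over DMSO were 1 in all settings except the mean of guides and a fold limit of 2 (0 in both). In RTX over day 0 the count of 1 became 2 with a pseudocount of 1 or scaling to the non-targeting guides, where TEAD1 joined LATS2, and 0 with a pseudocount of 20, with at least 50 reads at day 0, with the mean and with the fold limit of 2. In DMSO over day 0 it went from 0 to 1 (TEAD1) with scaling to the non-targeting guides. Member guides past the fold in RTX over DMSO, 4 as reported, were 8 by the authors' FDR in their deposited table. They were 3 with a pseudocount of 20 or at least 50 reads at day 0. By edgeR's exact test and with the fold limit of 2 they were 0. In DMSO over day 0 the 2 guides became 0 with a pseudocount of 20, the fold limit of 2 or edgeR, and 1 with at least 50 reads. They became 3 with scaling to the non-targeting guides or by the authors' FDR. In RTX over day 0 the 5 guides became 3 with a pseudocount of 20, 4 with at least 50 reads, and 0 with the fold limit of 2 or edgeR. They became 6 with a pseudocount of 1, with scaling to the non-targeting guides or by the authors' FDR. Pathway genes past the fold in RTX over DMSO went from 1 to 0 with the mean or the fold limit of 2. In DMSO over day 0 they went from 1 to 2 with a pseudocount of 1 or equal totals, and to 0 with the fold limit of 2. The count there stayed at 1 with scaling to the non-targeting guides and with the mean, but the gene changed. STK3 (1.12 as reported) was then inside the limit, and PTPN11 (-0.99 as reported) was past it on the lower side. In RTX over day 0 pathway genes past the fold went from 0 to 2 with scaling to the non-targeting guides and to 1 with equal totals. Sparse guides, with under 100 reads at day 0, limit LATS1, LATS2, SAV1 and TEAD1 most.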
